A study of Rattus norvegicus with 4 samples.

Results

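The glycosyltransferases and sulfotransferases that start, extend, branch and cap mucin-type O-glycans and N-glycans were examined in rat colon mucosa under experimental colitis. Members were taken by gene symbol: every non-control probe named for a Galnt, Gcnt, B3gnt, B3galt, B4galt, St3gal, St6gal, St8sia, St6galnac, Fut, Mgat or Chst gene, after removal of the suffixes for predicted and mapped genes. The rule used no measured value and gave 89 probes for 77 genes, of 41012 probes and 35561 distinct gene names on the array. Being by symbol, it also took in enzymes of glycolipids, such as St3gal5 and B3gnt5, and of proteoglycans, such as B3galt6 and B4galt7. Each of 4 arrays held, in the Cy5 channel, RNA of 2 F344 rats given resveratrol, a plant polyphenol, at 1 mg/kg/day for 20 days and then, for 5 days, drinking water with 5% dextran sodium sulphate (DSS), and, in the Cy3 channel, a pool from rats on standard chow that received the same DSS. DSS injures the colonic epithelium and causes colitis. Both groups had received it, so the ratios set resveratrol plus DSS against DSS alone, and no rats without DSS were analysed here. The 4 arrays covered rats 1 to 8 in pairs, and the dyes were never exchanged. No source used here gives the number of rats in the control pool or says whether all 4 arrays held the same pool. The pool counts as 1 control sample, so its own spread is not in any error below, and a dye effect on a probe and an effect of resveratrol cannot be told apart.

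Mucin-type O-glycans begin in the Golgi, where a polypeptide GalNAc-transferase puts N-acetylgalactosamine on a serine or threonine. Core enzymes, branching enzymes and alternating galactose and N-acetylglucosamine transferases then build the chain, and sialic acid, fucose or sulfate caps it. N-glycans are instead assembled on a lipid in the endoplasmic reticulum, moved as a block onto asparagine, trimmed, and branched in the Golgi by the Mgat enzymes. In the colon the mucins secreted by goblet cells carry dense O-glycans, and these glycans give the mucus layer much of its mass and its charge.

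The probes are 60 bases long, and 8 sequences are shown because the largest member ratios and the disagreements between probes of a gene rest on them. They are written 5′ to 3′ as on the array, with capitals marking bases that belong to 1 of 13 hexamers described below. The first pair had the highest member ratios, and the B4galt7, Galnt1 and Fut2 pairs are probes of the same gene. The B4galt2 probe maps to chr5:138344698-138344757 of the rat build rn3 on the minus strand, and the St3gal5 probe to chr4:105676557-105676616 on the plus strand, per the file annotation. The B4galt7 probes map to chr17:15060085-15060144 and chr17:15062607-15064329 on the minus strand. The second is listed over a stretch longer than the probe itself. The Galnt1 probes map to chr18:16065882-16066846, again longer than the probe, and chr18:16079281-16079340 on the plus strand. The Fut2 probes map to chr1:96197146-96197205 and chr1:96198407-96198466 on the minus strand.
B4galt2 A_44_P258114: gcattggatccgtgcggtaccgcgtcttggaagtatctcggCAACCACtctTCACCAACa
St3gal5 A_42_P611397: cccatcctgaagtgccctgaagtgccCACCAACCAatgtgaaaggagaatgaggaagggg
B4galt7 A_43_P18485: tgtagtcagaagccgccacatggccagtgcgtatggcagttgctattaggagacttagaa
B4galt7 A_44_P363522: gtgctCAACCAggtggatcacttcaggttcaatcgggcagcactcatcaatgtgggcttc
Galnt1 A_44_P524981: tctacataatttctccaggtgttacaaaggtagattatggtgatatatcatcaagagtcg
Galnt1 A_44_P590280: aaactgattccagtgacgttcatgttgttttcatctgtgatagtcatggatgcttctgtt
Fut2 A_42_P667763: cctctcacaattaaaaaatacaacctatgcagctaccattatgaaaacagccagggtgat
Fut2 A_44_P262324: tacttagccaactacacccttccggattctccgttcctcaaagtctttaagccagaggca

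All values below are log2 ratios of resveratrol plus DSS over the DSS control pool, after background correction and intensity-dependent normalization within each array. Testing required a signal well above background, in Cy5 or Cy3, on 3 or more arrays, with 2 or more unflagged values. Across arrays, 44.1% to 49.2% of Cy5 spots and 42.8% to 57.1% of Cy3 spots were well above background. Arrays 1 and 2 lay on one slide and arrays 3 and 4 on another. The scanner flagged 3.45% and 4.68% of spots as outliers on the first slide but 11.0% and 13.7% on the second, and the ratios of the arrays correlated across tested probes with r between 0.70 and 0.89. Over the tested members alone r lay between 0.63 and 0.91. Precision is limited by having only 4 arrays.

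Of the 89 member probes, 57 passed the intensity filter and 55 could be tested, covering 48 of the 77 genes. Ratios were called where the adjusted p of limma's moderated test, taken over all 18896 tested probes, was under 0.05. Resveratrol plus DSS raised 19 member probes and lowered 9, so that 50.9% of the tested members were called, against 47.1% of all tested probes. The split by direction was 34.5% higher and 16.4% lower among members, against 24.3% higher and 22.7% lower among all probes. All 28 called members had the same sign on every array with a value. Only B4galt2 and St3gal5 reached a log2 ratio of 1 in either direction, so most changes were below 2-fold. The median over the tested members was 0.19 and that over all tested probes -0.02. Where arrays were centred on their medians instead, both medians moved up, to 0.37 for the members and 0.20 for all probes, and the member calls became 27 higher and 1 lower, beside 36.3% higher and 9.75% lower among all tested probes. With each array left out in turn, 12 called probes kept their call every time, those of Galntl4, Galnt7, B3galt5, B4galt2, St3gal5, St8sia3, Fut1, Fut4 and Chst4 and the higher probes of B3gnt1, B4galt7 and Fut2, and every other called member lost it at least once. Without array 1 the counts were 11 higher and 2 lower, without array 2 they were 11 and 1, without array 3 they were 19 and 10, and without array 4 they were 16 and 2. The shares of all tested probes also moved. Without array 1 these shares were 11.999% higher and 9.37% lower, and without array 2 12.08% and 8.66%. Without array 3 these shares were 25.45% and 22.59%, and without array 4 20.97% and 15.62%. The standard error was also widened, by the square root of 2, for the unmeasured spread of the pool. Then 9 members stayed higher and 0 lower, beside 7.73% and 3.86% of all tested probes. The factor takes the pool's spread as equal to that of the array mean, which could not be checked. Of the called members, 5 higher ones (Galntl4, Galnt3, 1 B3gnt1 probe, Mgat2 and Chst4) met the intensity filter through the resveratrol plus DSS channel alone, and 2 lower ones (St8sia3 and Chst12) through the pool channel alone. The other 14 higher and 7 lower met it in both. Counted per gene through its brightest tested probe, 16 member genes were higher and 9 lower, beside 25.7% higher and 19.6% lower among 9450 genes. These are bulk samples, in which fewer cells of a type and less RNA per cell cannot be told apart.

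**Figure D1:**
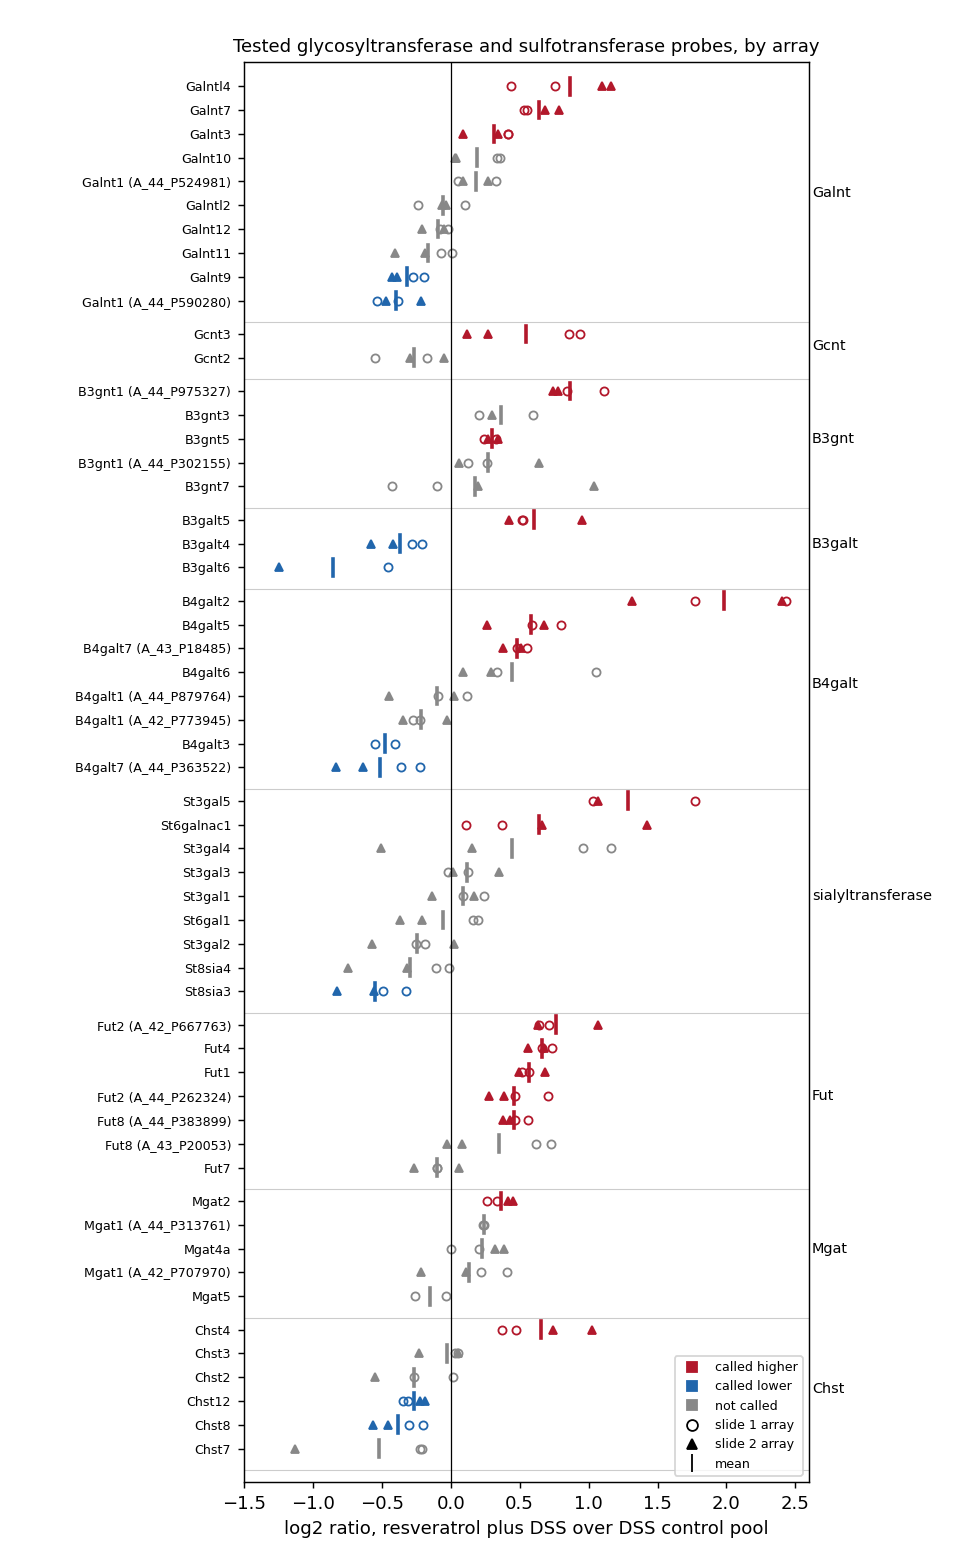
Log2 ratio (x axis) of resveratrol plus DSS over the DSS control pool for each of the 55 tested member probes, grouped by family from top to bottom. Circles are the arrays of slide 1, triangles those of slide 2, and vertical bars the means; B4galt2 lies farthest right with a mean of 1.98, and the Fut rows lie mostly right of 0.

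The polypeptide GalNAc-transferases, which start O-glycans, were split. Of their 10 tested probes 3 rose, 2 fell and 5 were not called. The shares over all tested probes, 24.3% higher and 22.7% lower, stand beside this and each family count below. Galntl4, now named Galnt18, had log2 ratios of 0.44, 0.76, 1.16 and 1.09 on the 4 arrays, all above 0 and highest on the second slide, with a mean of 0.86 ± 0.14 (moderated SE, n = 4), an increase of 1.82-fold (adjusted p = 0.00794). Its pool signal was well above background on only 1 array, so the size of the fold is uncertain. Galnt7, which prefers peptides that already carry a GalNAc, had values of 0.53, 0.55, 0.79 and 0.68, a narrow range around a mean of 0.64 ± 0.09 (adjusted p = 0.00579). Galnt3 showed 0.41, 0.42, 0.09 and 0.34, with array 3 near 0, and averaged 0.32 ± 0.09 (adjusted p = 0.0368), with a pool signal well above background on only 2 arrays. Galnt9, an enzyme best known from brain, fell on every array at -0.19, -0.27, -0.39 and -0.42, with a mean of -0.32 ± 0.08 (adjusted p = 0.0277); under median centring it stood at 0.00027 and was not called. The Galnt1 probe at the higher coordinate fell by 0.40 ± 0.09 on the log2 scale (adjusted p = 0.0184), while the other averaged 0.19 ± 0.09 and was not called. The remaining uncalled probes lay close to 0, with Galnt11 at -0.16, Galnt12 at -0.09, Galntl2 at -0.06 and Galnt10 at 0.19. Galntl1 had outlier flags on all 4 arrays and was not tested. With its flagged spots kept, it read -0.28, -0.52, -1.24 and -0.43.

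Among the branching enzymes of the Gcnt family, Gcnt3, which forms core 2 and core 4 branches in mucin-secreting epithelia, rose. Its ratios were 0.93 and 0.85 on slide 1 but 0.12 and 0.27 on slide 2, and the slides did not overlap. The mean was 0.54 ± 0.16 (n = 4, adjusted p = 0.0381), and its probe holds 1 of the hexamers. The call was lost without array 1, 2 or 4. Gcnt2, the I-branching enzyme, averaged -0.26 ± 0.11 and was not called (adjusted p = 0.081). Gcnt1, which also forms core 2 branches, did not pass the intensity filter.

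Chain extension was uneven. B3gnt enzymes add N-acetylglucosamine to galactose, and 2 of 5 tested probes rose and none fell. One B3gnt1 probe (the symbol as the array gives it, which matched no current gene entry) had 1.11, 0.84, 0.78 and 0.74, all well above 0, with a mean of 0.87 ± 0.10 (1.82-fold, adjusted p = 0.00451). Its Cy3 signal was well above background on only 2 arrays. B3gnt5, the lactotriaosylceramide synthase of the glycolipid pathway, read 0.33, 0.24, 0.35 and 0.27, the tightest of the family, at a mean of 0.30 ± 0.08 (adjusted p = 0.0263). The second B3gnt1 probe at 0.27, B3gnt3 at 0.37 on 3 arrays and B3gnt7 at 0.18 were not called. B3gnt7 ranged widely, with -0.10 and -0.43 on slide 1 and 0.20 and 1.04 on slide 2. B3gnt6, the core 3 synthase that colon mucins depend on in the mouse, was below the intensity filter, as was B3gnt4.

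All 3 tested B3galt probes were called, in different directions. B3galt5, which makes type 1 chains in the gut, rose with 0.51, 0.52, 0.42 and 0.95, at a mean of 0.60 ± 0.11 (1.52-fold, adjusted p = 0.0111). B3galt4, the galactosyltransferase that forms ganglioside GM1, fell with -0.28, -0.21, -0.58 and -0.42, at a mean of -0.37 ± 0.09 (adjusted p = 0.0253). B3galt6, which acts in the proteoglycan linker, had only 2 unflagged values, -0.45 on array 1 and -1.25 on array 3, at a mean of -0.85 ± 0.24 (n = 2, adjusted p = 0.0475). These 2 values differ almost by as much as their mean, so the size is poorly fixed.

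The B4galt family, which adds galactose in the alternating chain, held the largest member ratio. B4galt2 had 2.44, 1.77, 1.32 and 2.40 on the 4 arrays, and the lowest of these was passed among the other members only by St3gal5 and St6galnac1 on 1 array each. Its mean was 1.98 ± 0.20 (n = 4), a 3.95-fold rise (adjusted p = 0.00416), at a mean log2 signal of 12.94 in the resveratrol plus DSS channel and 10.96 in the pool channel. Of all tested probes 29 were as high. B4galt5, a lactosylceramide synthase, rose with 0.80, 0.59, 0.27 and 0.67, at 0.58 ± 0.11 (adjusted p = 0.0116). B4galt3 had values on slide 1 only, -0.55 and -0.41, and its mean of -0.48 ± 0.14 (n = 2) just passed the threshold (adjusted p = 0.0498); under median centring it stood at 0.04. B4galt6, the other lactosylceramide synthase, averaged 0.44 with 1.05 on array 2 and 0.09 on array 4 and was not called. Neither probe of B4galt1, the main galactosyltransferase of most tissues, was called, at -0.10 and -0.22.

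B4galt7, which adds the first galactose of the proteoglycan linker, gave opposite calls. One probe read 0.56, 0.48, 0.51 and 0.38 and was called higher, at 0.48 ± 0.08 (adjusted p = 0.00858). The other read -0.22, -0.36, -0.83 and -0.64 and was called lower, at -0.51 ± 0.12 (adjusted p = 0.0213). The array values of the pair do not overlap, and the means lie 0.99 apart, so no direction can be given for this gene. The lower probe holds 1 hexamer. Of the 7 member genes with 2 tested probes, Fut2 had both probes called higher, B3gnt1 and Fut8 had 1 called higher, Galnt1 had 1 called lower, and B4galt1 and Mgat1 had none called. The probes of B3gnt1 lay 0.59 apart and those of Galnt1 0.58 apart, whereas B4galt1, Fut8 and Mgat1 pairs lay within 0.12 and the Fut2 pair 0.31 apart.

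**Figure D2:**
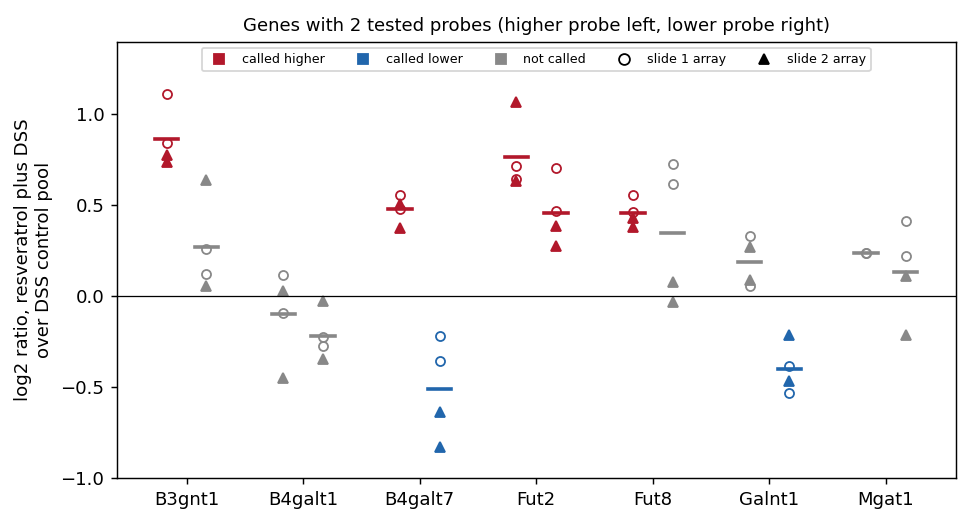
Log2 ratios (y axis) of resveratrol plus DSS over the DSS control pool for the 7 genes with 2 tested probes, the probe with the higher mean on the left of each pair. Circles are slide 1 arrays, triangles slide 2 arrays and horizontal bars means; only B4galt7 has probes called in opposite directions, 0.99 apart.

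Of 9 tested sialyltransferase probes 2 rose, 1 fell and 6 were not called, beside 24.3% higher and 22.7% lower among all tested probes. St3gal5, the GM3 synthase that opens ganglioside synthesis, had 1.77, 1.03 and 1.07 on arrays 1 to 3, with array 4 flagged, at a mean of 1.29 ± 0.18 (n = 3), a 2.44-fold rise (adjusted p = 0.00779). St6galnac1, which makes the sialyl-Tn structure on mucins, had 0.37 and 0.11 on slide 1 and 0.66 and 1.42 on slide 2, at 0.64 ± 0.21 (adjusted p = 0.0496). The slides did not overlap, and the call was lost whichever array was left out. St8sia3, which adds sialic acid to sialic acid, fell with -0.49, -0.32, -0.82 and -0.56, at -0.55 ± 0.11 (adjusted p = 0.012), and was the only member still lower under median centring. Its Cy5 signal was well above background on only 2 arrays. St3gal4 averaged 0.44 but split by slide, with 1.16 and 0.96 on slide 1 against 0.16 and -0.50 on slide 2, and was not called (adjusted p = 0.217). The others were St8sia4, a polysialyltransferase, at -0.30, St3gal2 at -0.25, St6gal1 at -0.05, St3gal1 at 0.09 and St3gal3 at 0.12.

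The fucosyltransferases had the largest share of tested probes called of the families with more than 3 tested probes, 5 of 7, and all 5 rose. These 7 probes covered only 5 genes, since Fut2 and Fut8 each had a pair, and the brighter Fut8 probe was the one not called. Among all tested probes 24.3% were higher and 22.7% lower. Both Fut2 probes, for the secretor enzyme that makes the H antigen of gut mucins, were higher. One read 0.71, 0.64, 0.63 and 1.07, at 0.77 ± 0.10 (1.70-fold, adjusted p = 0.00586), and the other 0.71, 0.47, 0.28 and 0.39, at 0.46 ± 0.10 (adjusted p = 0.0162). Fut1, the related H enzyme, read 0.52, 0.57, 0.50 and 0.68, at 0.57 ± 0.08 (adjusted p = 0.00626). Fut4, which makes Lewis x type structures, read 0.74, 0.66, 0.56 and 0.68, at 0.66 ± 0.08 (1.58-fold, adjusted p = 0.00492). The Fut1 and Fut4 values vary little between arrays, while the second Fut2 probe lost its call without array 1 or 2. For Fut8, which adds the core fucose of N-glycans, one probe was higher at 0.46 ± 0.08 (adjusted p = 0.00954) and the other averaged 0.35 ± 0.15 without a call, with 0.73 and 0.62 on slide 1 and -0.03 and 0.08 on slide 2. Fut7, the leukocyte enzyme for selectin ligands, averaged -0.10 and was not called. None of the Fut probes holds a hexamer.

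Among the N-glycan branching enzymes only Mgat2, which adds the second antenna, was called, at 0.34, 0.27, 0.42 and 0.45 with a mean of 0.37 ± 0.08 (adjusted p = 0.017). Its pool signal was well above background on 2 arrays, its Cy5 signal on 4. Mgat1, the enzyme before it, was not called with either probe (0.13 and 0.24, the second from 2 arrays). Mgat4a at 0.23 and Mgat5 at -0.15 on 2 arrays, both for further antennae, were not called. Mgat5b was flagged on all arrays and not tested; with flagged spots kept it read -0.30, -0.20, -0.69 and -0.34.

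Of the sulfotransferases, Chst4, which sulfates N-acetylglucosamine, rose with 0.47, 0.37, 1.02 and 0.74, at 0.65 ± 0.13 (1.57-fold, adjusted p = 0.0126), over a pool signal well above background on only 2 arrays. Chst8, which sulfates terminal GalNAc, fell with -0.20, -0.30, -0.56 and -0.45, at -0.38 ± 0.09 (adjusted p = 0.0237). Chst12, a chondroitin sulfotransferase, was not well above background in the resveratrol plus DSS channel on any array. Its ratio was -0.27 ± 0.08, 1.20-fold lower with resveratrol plus DSS (adjusted p = 0.0382). The mean log2 signals were 7.63 in the resveratrol plus DSS channel and 7.90 in the pool channel, so the size is uncertain. Chst7 at -0.52 and Chst2 at -0.27, on 3 arrays each, and Chst3, a chondroitin sulfotransferase, at -0.02 were not called.

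Altogether 29 member genes had no tested probe. Besides Galntl1 and Mgat5b they were Galnt2, Galnt5, Galnt13, Galntl5, Gcnt1, B3gnt4, B3gnt6, B3galt1, B3galt3 (now B3galnt1), B3galt7 (now B3gnt8), B4galt4, St3gal6, St6gal2, St6galnac2, St6galnac3, St8sia1, St8sia2, St8sia5, St8sia6, Fut9, Fut11, Mgat3, Mgat4c, Chst1, Chst9, Chst10 and Chst11. Apart from those 2, their probes stayed near background, which says nothing about direction.

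The slides differed for some members. Of 52 members with values on both slides, 6 had slide means of opposite sign. None of the 27 called members among the 52 did, which follows from their having 1 sign on every array. The slide means lay more than 0.5 apart for 9 members, higher on slide 1 for B3galt6, B4galt6, Chst7, 1 Fut8 probe, Gcnt3 and St3gal4, and higher on slide 2 for B3gnt7, Galntl4 and St6galnac1. St3gal4 had the widest gap, 1.06 on slide 1 and -0.17 on slide 2. With the slide as a random block, 17 members were called higher and 6 lower, beside 19.9% and 17.1% of all tested probes.

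**Figure D3:**
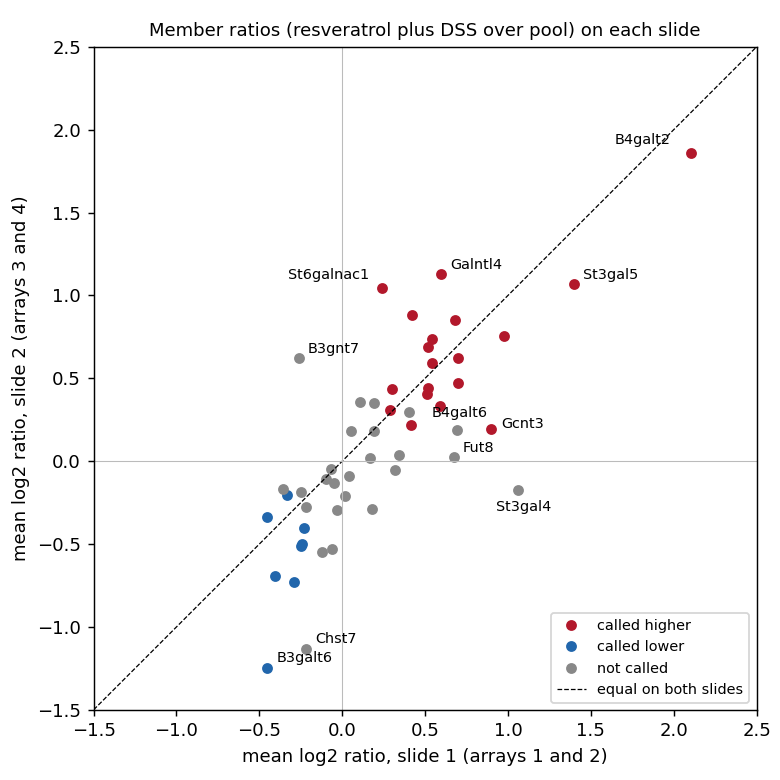
Mean log2 ratio of resveratrol plus DSS over the DSS control pool on slide 1 (x axis) and slide 2 (y axis) for the 52 members with values on both. Each point is a probe coloured by its call; named points differ by more than 0.5 between slides or average above 1, and St3gal4 lies farthest from the dashed line of equality at 1.06 and -0.17.

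The highest ratios on these arrays went with short probe sequences, and this touches the leading members. The 13 hexamers most over-represented among the 475 probes called higher with a log2 ratio of at least 1, such as ACCACC and AACCAC and CACCTC, were chosen after seeing the data. They were held by 76.2% of those probes, 11.0% of the 309 called lower by as much and 16.3% of all tested probes. Of the tested members 7 (12.7%) hold one. They include both members above 1, B4galt2 with 5 hexamers and St3gal5 with 4, as the capitals in their sequences show, and Gcnt3 with 1. The lower B4galt7 probe holds 1, and B4galt1, Galnt10 and Chst7 have a holder that was not called. Whether these sequences set the ratios of B4galt2 and St3gal5 was not tested. Without every holder, 16 of 48 members were higher and 8 lower, beside 23.6% higher and 24.9% lower among all probes then tested. Probe GC content had a median of 45% for members called higher, 51.7% for those called lower and 45% for those not called. The median was 45% for all tested probes, and likewise for all probes called higher and for all called lower.

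**Figure D4:**
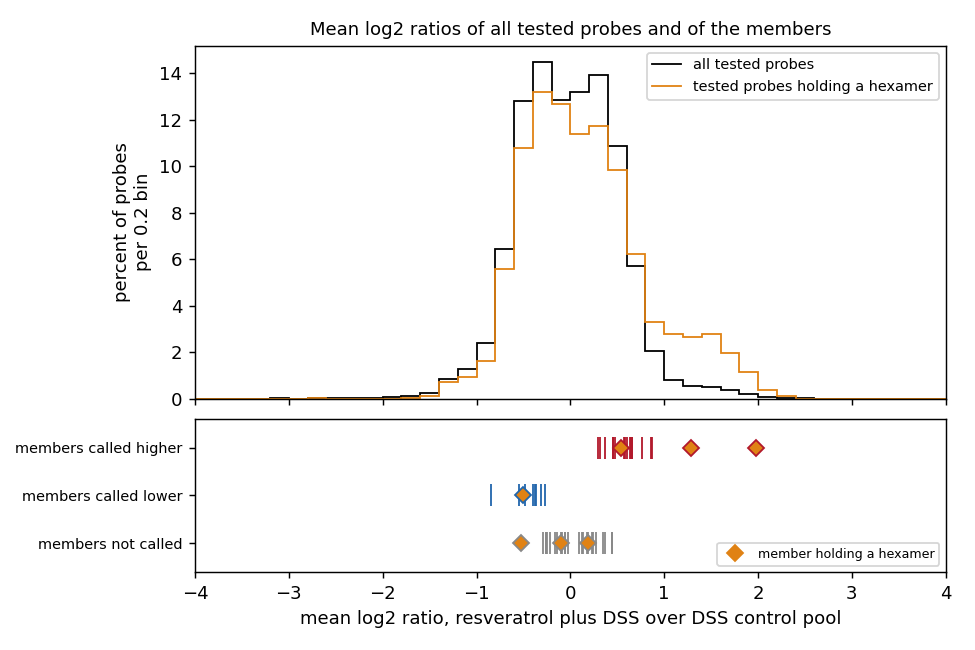
Upper panel, percent of tested probes (y axis) per 0.2 bin of mean log2 ratio of resveratrol plus DSS over the DSS control pool (x axis, shown from -4 to 4), for all 18896 tested probes and for the 3072 holding a hexamer. Lower panel, the 55 members by call, with diamonds for the 7 that hold a hexamer; B4galt2 at 1.98 and St3gal5 at 1.29 are diamonds that lie apart from the other members.

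The steps around these enzymes were read through gene lists, each gene by its brightest tested probe. Core 1 synthesis competes with core 3 for the same substrate, and neither of its 2 genes was higher. C1galt1, the core 1 enzyme, averaged -0.12 ± 0.09 and was not called, and its chaperone C1galt1c1 (Cosmc) fell by 0.32 ± 0.10 on the log2 scale (adjusted p = 0.0365), though its other probes read 0.17 and close to 0. Among enzymes and carriers of sugar nucleotides, the activated donors, 7 of 28 tested genes rose and 1 fell, a share of rises near the 25.7% of all genes. The largest were Gne (0.73 ± 0.14) and Nans (0.60 ± 0.09), of sialic acid synthesis, Ugdh (0.55 ± 0.09), which makes UDP-glucuronic acid, and the UDP-GlcNAc carrier Slc35a3 (0.55 ± 0.09). Nanp (0.12) and Cmas (0.09), which also act in sialic acid synthesis and activation, were not called. The list's median was 0.25.

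Among genes that build, transfer and trim the N-glycan precursor, 12 of 28 rose and 1 fell, with a median of 0.29. Over all genes 25.7% were higher and 19.6% lower, the shares that stand beside this list and the next lists. The largest were subunits of the oligosaccharyltransferase: Magt1 at 0.83 ± 0.08 with a pool signal well above background on only 2 arrays, Stt3b at 0.74 ± 0.17 with 3 hexamers in its probe, Dad1 at 0.71 ± 0.18 and Stt3a at 0.59 ± 0.09. Of 15 lysosomal glycan-degrading genes 7 rose and none fell, with a median of 0.29, among them Ids (0.71 ± 0.09), Man2b1 (0.55 ± 0.12) and Fuca2 (0.53 ± 0.09). Of 16 other Golgi glycosyltransferases outside the rule, 1 was higher and 3 were lower, at a median of 0.01. Those called were Pomt1 (0.90 ± 0.18, 4 hexamers), B4galnt1 (-0.70 ± 0.13, 2 arrays), Xylt1 (-0.45 ± 0.10), which starts proteoglycan chains, and Csgalnact1 (-0.32 ± 0.08), a chondroitin enzyme. Genes by brightest tested probe had a median of 0.02 in all.

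Of 17 mucin and secreted goblet genes, whose products carry the O-glycans or accompany them, 4 were higher and 2 lower, at a median of 0.17, beside 25.7% higher and 19.6% lower among all genes. Muc2, the secreted gel-forming mucin of the colon, rose with 1.66, 1.64, 0.97 and 2.24, at 1.63 ± 0.20 (adjusted p = 0.00492). Its probe holds 1 hexamer. Muc4, a membrane mucin, was at least 2.95-fold higher (adjusted p = 0.00409) by a probe with 7 hexamers whose Cy5 signal was saturated on all arrays. Its other 4 probes read 0.51, 0.28, 1.09 and 2.04, the last also saturated. Muc1, another membrane mucin, rose by 0.52 ± 0.08 with none. Muc5ac, a gastric-type mucin, fell by 0.51 ± 0.14 on the log2 scale with values on 2 arrays.

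Markers of cell types were read in the same way, beside 25.7% higher and 19.6% lower among all genes. Epithelial markers were higher for 3 of 8 tested genes, absorptive colonocyte markers for 6 of 9 (median 0.89) and goblet cell markers for 2 of 5, and none of them was lower. Hexamers were held by 4 of the 9 colonocyte probes, those of Car4, Cdx1 and Slc9a2, called higher, and Car1, not called. Krt20, Slc16a1 and Slc9a3 were higher with none. Krt18, the largest epithelial ratio at 1.38, holds 3, and its other probe read 0.25. Krt19 and Krt8 were higher with none. Whether these sequences set the marker ratios was not tested. Fibroblast markers were lower for 5 of 6 (median -1.18), neutrophil markers for 5 of 5, leukocyte markers for 3 of 6, plasma cell markers for 2 of 3, erythrocyte markers for 3 of 3, smooth muscle markers for 1 of 4 and pancreas acinar markers for 6 of 7. The fibroblast marker not called was Col1a1, at 0.22 by a probe with 3 hexamers. The other Col1a1 probes had negative ratios. The summed normalized signal of the epithelial markers was 89082 to 164769 with resveratrol plus DSS and 33310 to 63589 in the pool. That of the absorptive colonocyte markers was 47685 to 96787 and 14579 to 31139, and that of the goblet markers 62858 to 75614 and 16574 to 34709, in the same order. The neutrophil sums were 11177 to 12720 with resveratrol plus DSS and 19706 to 22099 in the pool, the leukocyte sums 3743 to 4666 and 4453 to 5906, the plasma cell sums 2111 to 2923 and 1905 to 2301, and the erythrocyte sums 2747 to 3632 and 11868 to 22236. Fibroblast sums were 19188 to 29701 and 18694 to 28758, and smooth muscle sums 7472 to 12751 and 11870 to 14626. Pancreas acinar sums were 4012 to 4487 and 10439 to 13272. The ranges of the 2 channels overlapped for the leukocyte, plasma cell, fibroblast and smooth muscle sums. Among the plasma cell markers Mzb1 (-0.66) and Prdm1 (-0.52) were lower, while Sdc1 read 0.50 and was not called. In the resveratrol plus DSS channel 4 pancreas acinar markers were not well above background on any array, while every other tested marker was so on at least 1. The part of these shifts in the member ratios was not tested.

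**Figure D5:**
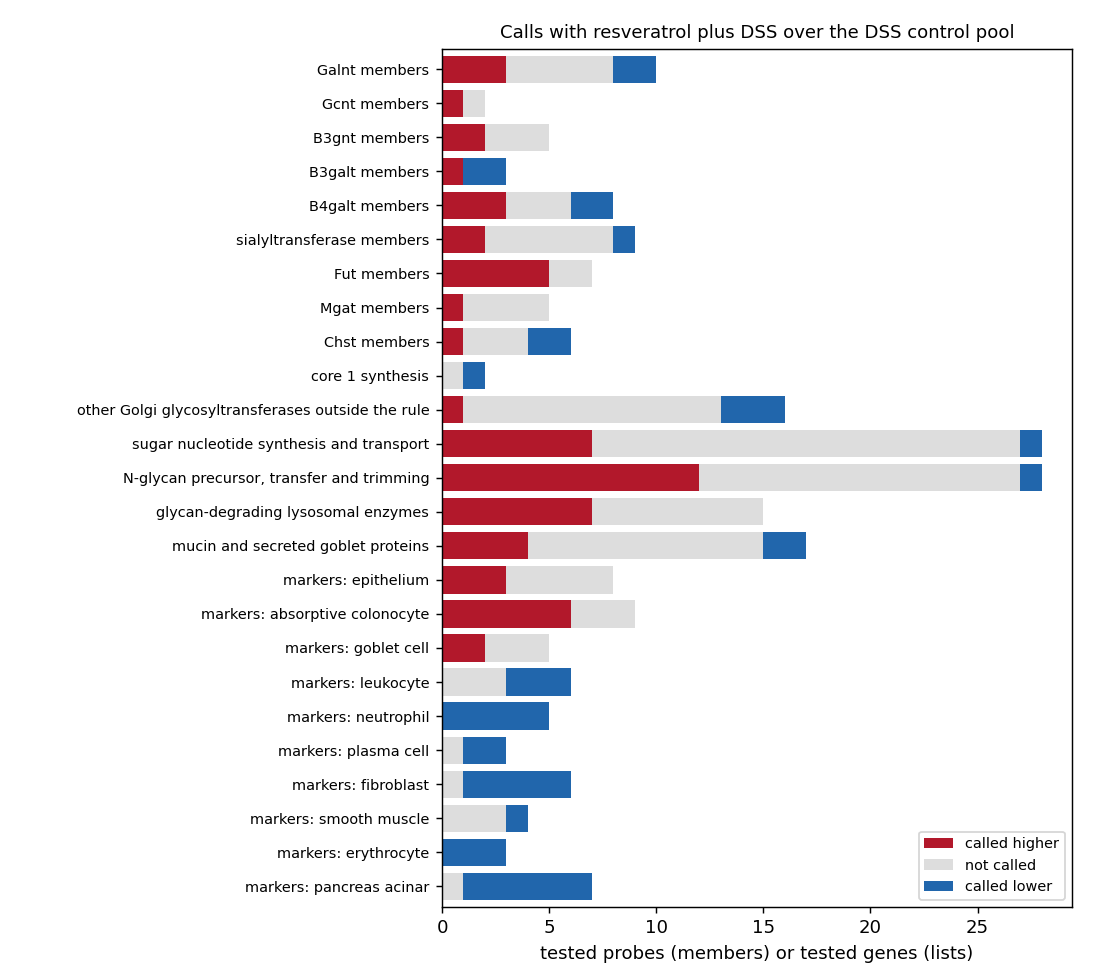
Number of tested probes (member families) or tested genes (lists and cell type markers) on the x axis, called higher, not called and called lower with resveratrol plus DSS over the DSS control pool. The Fut bar has 5 of 7 called higher and none lower, and all 5 neutrophil markers were called lower.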

How the data were processed

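Per the file headers, the deposited spot intensity values came from Agilent Feature Extraction 9.5.3.1, with probe positions on rn3. Agilent Feature Extraction and limma are the tools in the submitters' processing notes. The log10 ratio deposited for each spot was not used for the comparison. The authors' value table (24197 probes) tracked the Cy5 over Cy3 log2 ratios of the scanner, with r of 0.98 to 0.99 and slopes of 0.97 to 1.00. Its column medians were -0.013, -0.013, 0.0909 and -0.0247, and its centring is not stated.

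Mean spot signals were corrected with normexp (offset 50) and normalized by loess within arrays in limma 3.58.1 under R 4.3.3, with control (1639 of 45018) and outlier-flagged spots at weight 0 and flagged spots left out. Spots of a probe were averaged. Mean log2 ratios were set against 0 (lmFit, eBayes, two-sided), with Benjamini-Hochberg adjustment at 0.05 over all tested probes. The fit was tested on simulated data. Values after ± are moderated standard errors. Of the tested members 47 had values on 4 arrays, 4 on 3 and 4 on 2. Member names matched RefSeq (GRCr8, names only) by accession for 56 probes, by symbol for 27 and by synonym for 3; 3 kept the file's name. Replicates were numbered by accession and pair nothing.

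Every member gene with a called probe was named with all its probes' values, as were uncalled tested members and those without a tested probe. Outside the members, C1galt1, C1galt1c1, Muc2 and up to 4 called genes per list, with the largest ratios of 1 sign on all arrays, were named; 1 gene that this rule takes is not reported here. Members and lists were chosen with earlier results of these data known.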

Additional observations from a re-analysis of the deposited data

Results flagged for a closer look

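Among the 47 members with values on all 4 arrays, 1 had an array that stood apart by Dixon's criterion, and chance alone flags about 1 in 20 such groups. It was Chst3, whose ratio on array 3 was -0.23 while the other arrays read 0.05, 0.03 and 0.05.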

How the results depend on the processing

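The counts of 19 members called higher and 9 lower were compared with those under 22 alternatives. Of the 28 called probes, 6 kept call and direction in every alternative that tested them, namely those of B4galt2, St3gal5, Galntl4, Galnt7, the higher B3gnt1 probe and the higher Fut2 probe. Of these only Galnt7 and the Fut2 probe were tested in all 22. The fit without hexamer probes did not test B4galt2 and St3gal5. St3gal5, flagged on array 4, was also not tested on slide 2 alone or where values on all 4 arrays were required. The fit requiring both channels well above background did not test Galntl4 and the B3gnt1 probe. The other 22 lost the call in at least 1, and 11 uncalled members gained one in at least 1. Median centring gave 27 higher and left 1 lower, beside 9.75% lower among all probes (22.7% as reported), and turned B4galt3 to 0.0426 and Galnt9 to 0.00027. The processed signals left 5 lower, slide 2 alone 1, and a standard error widened for the unmeasured spread of the pool 0, where the shares of all probes were 14.7%, 6.93% and 3.86%. Requiring Cy5 and Cy3 to be well above background on every array left 12 higher and 3 lower of 36 tested members. All probes tested under that rule stood at 19.69% higher and 15.03% lower. Slide 2 alone left 6 higher and the widened error 9 higher, beside 5.16% and 7.73% of all probes. Slide 1 alone gave 24 higher and 6 lower, keeping flagged spots 26 and 9, and array weights 23 and 11. All probes then stood at 33.2% higher and 25.5% lower, 33.7% and 30.6%, and 30.0% and 26.3%. The authors' table gave 22 higher and 14 lower of 71 tested, beside 22.3% and 22.0% of all its tested probes. Leaving out 1 array at a time gave 11 to 19 higher and 1 to 10 lower, and 12 called probes kept their call each time. Without replicate 1 there were 11 higher and 2 lower, without replicate 2 11 and 1, and without replicate 4 16 and 2. All probes tested in these fits stood at 11.999% higher and 9.37% lower, 12.08% and 8.66%, and 20.97% and 15.62%. Dropping all hexamer probes, added after seeing the data, gave 16 higher and 8 lower, beside 23.6% and 24.9% of all probes left. The cause of these shifts was not tested. Of the 29 genes without a tested probe, Galntl1 and Mgat5b were flagged on all arrays and the others lay near background. No paired analysis was possible because the arrays form 1 group against a control pool counted as 1 sample.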
